A study of Mus musculus with 12 samples.

Results

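The 10 genes described here, Glul, Axin2, Lgr5, Tbx3, Oat, Rhbg, Slc1a2, Rnf43, Znrf3 and Cyp2e1, are Wnt-driven genes of pericentral hepatocytes, the liver cells that surround the central vein. They were chosen by name from the 52636 genes counted, to ask whether lower levels of the pericentral cytochrome P450s in this series extend to genes that Wnt signalling controls. All 10 passed the filter on low counts, which kept the 12453 genes whose counts averaged 12 or more over the mice. The mice were C57Bl/6J males of 16 weeks, 6 VDD-F1 and 6 VDS-F1, with 1 liver library each. VDD-F1 mice were born to dams fed a diet lacking vitamin D from before mating to delivery, and VDS-F1 mice to dams fed a vitamin D sufficient diet. After delivery both groups were on the sufficient diet. Serum vitamin D recovers only over weeks after such a switch, so the contrast spans the time before birth and the first weeks of life, which cannot be told apart. The deficient diet came with added calcium gluconate. The sources used here do not say which mice were littermates.

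Each library held 25897868 to 36403413 fragments, of which 14275793 to 20815066 were counted on genes. Levels are given as CPM, counts of a gene scaled with TMM to a common library size. The study's supplement gives a liver weight for VDS3 to VDS6 and VDD4 to VDD6, 7 mice, and none for VDS1, VDS2 and VDD1 to VDD3, the other 5. These sets are not groups in the labels and what set them apart is not given in the sources used here, but 2.46% of the genes tested were called between them, so values are given over all mice and within each set. All 8 hepatocyte markers were detected in every mouse, with Alb, the gene of serum albumin, at 55809 to 79284 CPM.

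In the liver lobule, endothelial cells of the central vein secrete Wnt ligands such as Wnt2 and Wnt9b and the amplifier Rspo3. In the hepatocytes next to them beta-catenin is stabilized and, with TCF/LEF factors, switches on the pericentral programme, while hepatocytes near the portal vein carry out ureagenesis and gluconeogenesis. Glul encodes glutamine synthetase, Oat ornithine aminotransferase, Slc1a2 a glutamate transporter and Rhbg an ammonium transporter, which act in the capture of ammonia and glutamate, and Cyp2e1 oxidizes ethanol and other small molecules. Axin2 is a scaffold of the beta-catenin destruction complex, Lgr5 a receptor for R-spondins, and Rnf43 and Znrf3 are ubiquitin ligases that remove Wnt receptors from the membrane. Tbx3 is a transcription factor.

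The stretches upstream of 4 members are shown because these 4, Glul, Oat, Slc1a2 and Cyp2e1, were the members whose lower level in the mice with a recorded liver weight was called whichever of those mice was left out. They run from base -250 to base -91 before the RefSeq start in GRCm38.p6, where -1 is the base before the start, and are written 5′ to 3′ on the strand of the gene. Capitals mark CTTTGA or its reverse complement TCAAAG, the core of the TCF/LEF motif. The stretches lie at chr1:153899679-153899838 (+) for Glul, chr7:132576489-132576648 (-) for Oat, chr2:102706188-102706347 (+) for Slc1a2 and chr7:140763569-140763728 (+) for Cyp2e1. The one at Glul overlaps an exon of Teddm2 on the opposite strand, and the one at Slc1a2 lies within the span of longer Slc1a2 transcripts.
Glul: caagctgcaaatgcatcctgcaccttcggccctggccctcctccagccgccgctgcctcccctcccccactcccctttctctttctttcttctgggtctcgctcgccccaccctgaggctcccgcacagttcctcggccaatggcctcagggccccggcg
Oat: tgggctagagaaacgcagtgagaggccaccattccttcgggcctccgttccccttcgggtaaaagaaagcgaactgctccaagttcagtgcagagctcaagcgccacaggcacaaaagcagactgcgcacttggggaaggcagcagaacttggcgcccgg
Slc1a2: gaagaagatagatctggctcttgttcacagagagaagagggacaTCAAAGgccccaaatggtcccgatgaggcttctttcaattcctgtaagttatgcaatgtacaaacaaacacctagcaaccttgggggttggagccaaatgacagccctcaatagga
Cyp2e1: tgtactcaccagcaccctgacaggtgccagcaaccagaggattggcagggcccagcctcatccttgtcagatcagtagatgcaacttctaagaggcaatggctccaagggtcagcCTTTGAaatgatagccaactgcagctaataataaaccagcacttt
Glul and Oat had no copy of these 6 letters in the whole window of 300 bases, 250 before and 50 after the start. Slc1a2 had 2, at -206 to -201 (capitals) and at -77 to -72, past the stretch printed, and Cyp2e1 had 1, at -135 to -130. Windows were found for 6 members, also Axin2 and Rnf43, and not for Lgr5, Tbx3, Rhbg and Znrf3. Of their 7 windows 2 held the letters on either strand, against 16% of all 32851 RefSeq windows of this length. The longer CTTTGAT, which overlaps the first motif, was found in Slc1a2 alone among the members, at -207 to -201, and in 3.73% of all windows. A match of letters is not a measured binding site.

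Per kilobase of exon, the level in VDS-F1 mice was highest for Cyp2e1, at 2498 ± 357 CPM per kb (SD, n = 6). Glul followed at 334 ± 69.3 and Oat at 275 ± 52.9 CPM per kb, and the mice of these 2 genes overlapped. Slc1a2 had 15.4 ± 0.720 CPM per kb and Tbx3 9.95 ± 3.90. Rnf43 was at 3.81 ± 1.07, Znrf3 at 2.68 ± 0.308 and Axin2 at 1.93 ± 0.445 CPM per kb, and neighbours from Tbx3 down to Axin2 overlapped. Lgr5, at 0.721 ± 0.235 CPM per kb, overlapped Rhbg, the lowest at 0.439 ± 0.182. The genes of ammonia and glutamate handling thus came before the Wnt feedback genes, except for Rhbg, whose 6 to 28 counts per library make its values imprecise. Rhbg also overlaps Gm38392 on the same strand, a gene with no count in any mouse. Fragments on bases that both share may be missing from its level.

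Over all 12 mice, none of the 10 members was called different between VDD-F1 and VDS-F1 livers at an adjusted p-value under 0.05. In the same edgeR quasi-likelihood fit 5 of 12453 genes were called, 0.0402%. Cyp2e1, Rnf43 and Tbx3 had an unadjusted p-value under 0.05, all with the lower mean in VDD-F1, where 6.29% of all genes had such a p-value in this direction. DESeq2's Wald test called 1 member, Cyp2e1, and voom with sample quality weights called 2, Cyp2e1 and Rnf43. The share of all genes that these 2 tools called is not given here, nor for the lists below. Their counts of calls thus have no such share beside them, and the 0.0402% is edgeR's. The log2 fold change was negative for 9 of the 10 members, all but Znrf3, and for 49.2% of all genes tested. Its median over the members was -0.46, beside 0.00 over all genes tested.

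**Figure D1:**
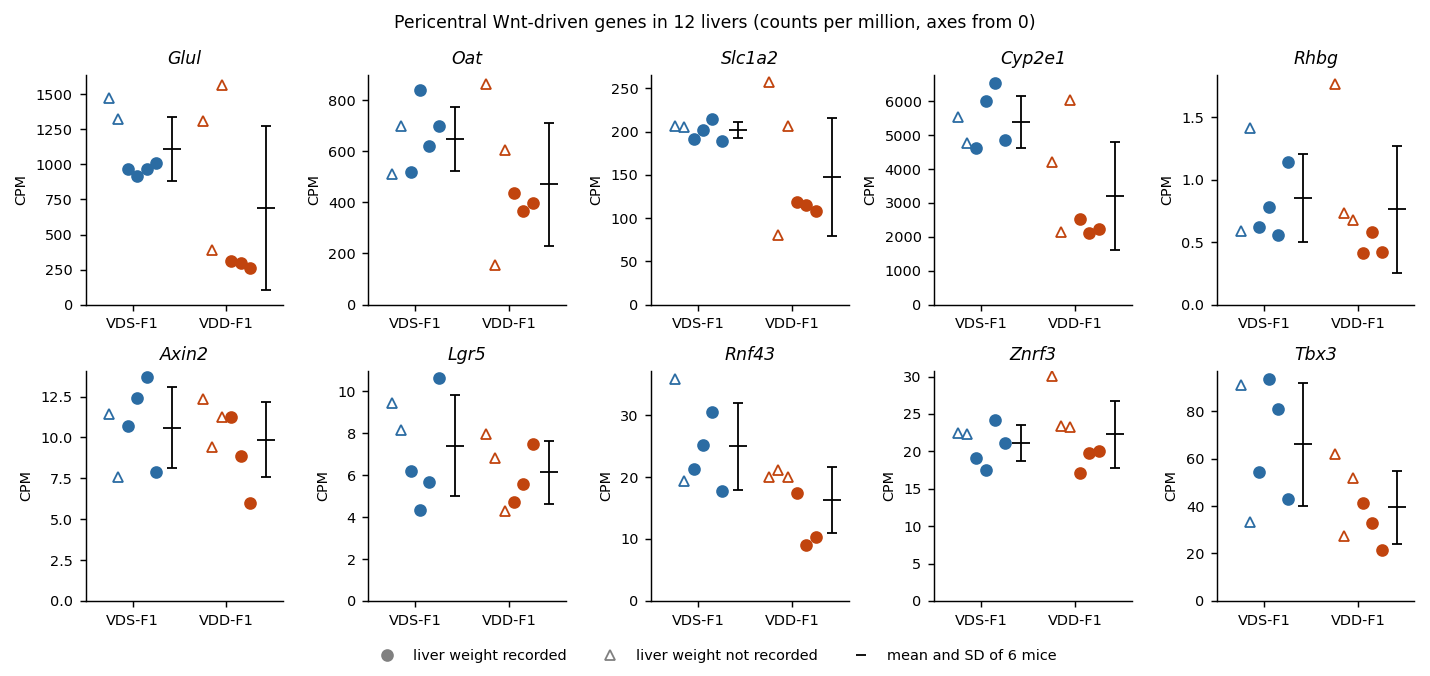
Level of each member in every liver, in CPM on a linear axis from 0, with VDS-F1 mice in blue and VDD-F1 mice in orange; filled circles are mice with a recorded liver weight, open triangles the others, and the bars give the mean and SD of 6 mice. In Glul, Slc1a2 and Cyp2e1 the 3 filled VDD-F1 points and VDD2 lie below all VDS-F1 points, while VDD3 lies among or above them.

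The VDD-F1 livers were split for the metabolic members. Glul (ENSMUSG00000026473.15, chromosome 1, 153899944 to 153909723 in GRCm38) had a lowest, median and highest level of 261, 352 and 1568 CPM in VDD-F1 mice and of 918, 992 and 1477 CPM in VDS-F1 mice. In VDD-F1 mice, 4 of 6 lay under every VDS-F1 mouse (VDD2, VDD4, VDD5 and VDD6, 261 to 392 CPM), and VDD1 and VDD3, at 1309 and 1568 CPM, lay among and above them. With means of 690 ± 587 and 1111 ± 230 CPM (SD, n = 6 each), its log2 fold change was -0.69 with a 95% interval of -1.60 to 0.23 and an adjusted p of 0.456. With each mouse left out in turn it ran from -1.11 (without VDD3) to -0.52 and was not called.

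Slc1a2 (ENSMUSG00000005089.15, chromosome 2, 102658659 to 102790784) showed the same 4 mice apart. Its lowest, median and highest levels were 80.8, 117 and 257 CPM in VDD-F1 and 190, 204 and 214 CPM in VDS-F1 mice, which hardly varied (SD 9.46, n = 6). VDD1, at 257 CPM, was above every VDS-F1 mouse and VDD3, at 206, within their range. Its log2 fold change was -0.45 (95% interval -0.94 to 0.04, adjusted p = 0.357), and without VDD1 it was -0.68 (adjusted p = 0.0572).

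Oat (ENSMUSG00000030934.9, chromosome 7, 132557478 to 132576398) had 156, 419 and 865 CPM as its lowest, median and highest level in VDD-F1 and 511, 660 and 839 CPM in VDS-F1 mice. The same 4 VDD-F1 mice were under all VDS-F1 mice, and VDD1 was above them. The log2 fold change was -0.46 (95% interval -1.09 to 0.17, adjusted p = 0.470), and it was -0.72 without VDD1 and -0.28 without VDD2, neither of them called. Oat overlaps Fgfr2 on the same strand, and fragments on bases that both share are not assigned to either by such counting.

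Cyp2e1 (ENSMUSG00000025479.9, chromosome 7, 140763739 to 140774987) was the member with the smallest unadjusted p-value. Its lowest, median and highest levels were 2098, 2385 and 6037 CPM in VDD-F1 and 4633, 5193 and 6542 CPM in VDS-F1 mice. Here 5 of 6 VDD-F1 mice lay under every VDS-F1 mouse, VDD1 at 4220 CPM included, and VDD3 did not. Means of 3209 ± 1601 and 5391 ± 770 CPM (SD, n = 6 each) gave a log2 fold change of -0.75 (95% interval -1.29 to -0.21, adjusted p = 0.174). Without VDD3 it was -1.03 and was called (adjusted p = 0.0337).

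Rhbg (ENSMUSG00000104445.1, chromosome 3, 88242874 to 88254709) ranged from 0.412 to 1.77 CPM in VDD-F1 and from 0.555 to 1.42 CPM in VDS-F1 mice, and the groups overlapped. Its log2 fold change of -0.16 had a 95% interval of -1.03 to 0.71, which holds both -1 and 0. Without VDS2 the value was 0.047.

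Among the Wnt feedback genes, Rnf43 and Znrf3 encode related proteins, and neither was called by edgeR, while voom called Rnf43. Rnf43 (ENSMUSG00000034177.15, chromosome 11, 87662722 to 87735539) had 9.10, 18.7 and 21.1 CPM as its lowest, median and highest level in VDD-F1 and 17.7, 23.2 and 35.8 CPM in VDS-F1 mice. The groups overlapped, with VDD4 to VDD6 under all VDS-F1 mice. For Rnf43 the log2 fold change was -0.62 (95% interval -1.11 to -0.13, adjusted p = 0.220). Znrf3 (ENSMUSG00000041961.14, chromosome 11, 5276324 to 5444847) ranged from 17.2 to 30.1 CPM in VDD-F1 and from 17.5 to 24.2 CPM in VDS-F1 mice, with a log2 fold change of 0.08 (95% interval -0.20 to 0.35). The difference between the fold changes of these 2 genes was not tested.

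Axin2 (ENSMUSG00000000142.15, chromosome 11, 108920349 to 108950783), a widely used readout of Wnt signalling, ranged from 5.97 to 12.4 CPM in VDD-F1 and from 7.55 to 13.7 CPM in VDS-F1 mice. Its means of 9.85 ± 2.30 and 10.6 ± 2.45 CPM (SD, n = 6 each) differed by less than the spread between mice, and the 95% interval of the log2 fold change was -0.51 to 0.29. Lgr5 (ENSMUSG00000020140.15, chromosome 10, 115450311 to 115587780) ranged from 4.29 to 7.95 and from 4.32 to 10.7 CPM, with a 95% interval of -0.74 to 0.22. For both genes the groups overlapped, and a log2 fold change of -1 lay outside the interval.

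Tbx3 (ENSMUSG00000018604.18, chromosome 5, 119670669 to 119684724), the transcription factor, had 21.4, 37.0 and 62.1 CPM as its lowest, median and highest level in VDD-F1 and 33.2, 67.5 and 93.3 CPM in VDS-F1 mice. The VDS-F1 mice spread widely, with VDS2, VDS3 and VDS6 within the range of VDD-F1. The log2 fold change was -0.74 (95% interval -1.37 to -0.12, adjusted p = 0.235). In bulk liver, fewer pericentral hepatocytes and less RNA of a gene in each of them cannot be told apart.

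**Figure D2:**
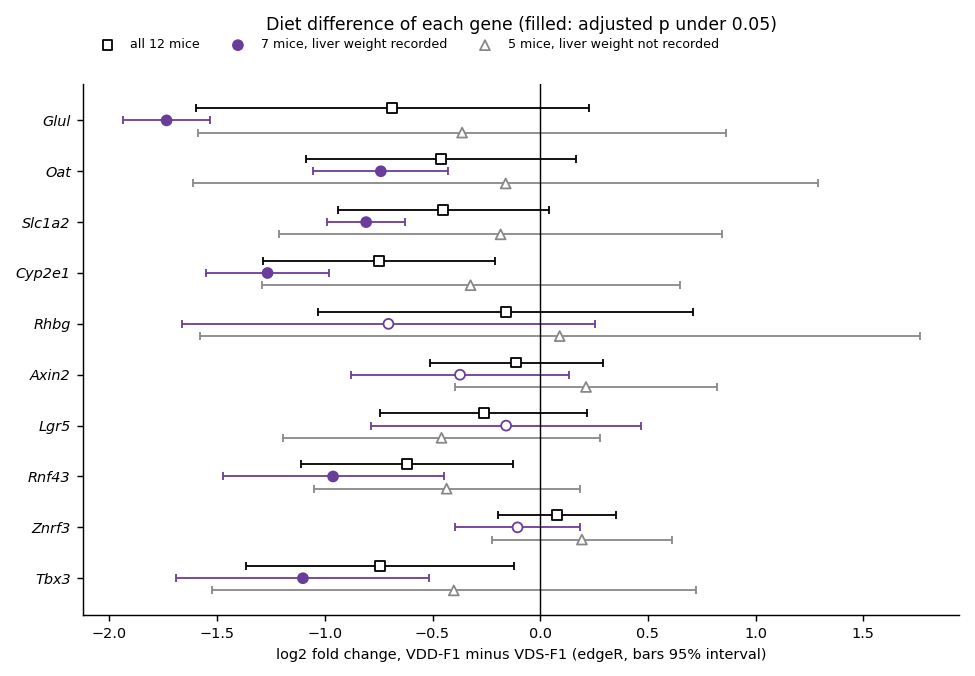
Log2 fold change of each member, VDD-F1 minus VDS-F1, with bars for the 95% interval from edgeR; black squares are all 12 mice, purple circles the 7 mice with a recorded liver weight and grey triangles the other 5. Filled symbols have an adjusted p under 0.05, and only the purple series has any, for Glul, Oat, Slc1a2, Cyp2e1, Rnf43 and Tbx3.

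Within the 7 mice with a recorded liver weight, 6 of the 10 members were lower in the livers of VDD-F1 mice at an adjusted p under 0.05, Glul, Oat, Slc1a2, Cyp2e1, Rnf43 and Tbx3. In this comparison 11% of the 12453 genes were called, 5.12% as lower. For the same 6 members no VDD-F1 mouse overlapped a VDS-F1 mouse, and all were lower, where 11.4% of all genes did not overlap in that direction. The median log2 fold change was -0.77 over the members and 0.01 over all genes tested. Axin2, Lgr5, Rhbg and Znrf3 were not called.

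Glul had the largest fold change of the members in these mice. Its levels were 313, 298 and 261 CPM in VDD4 to VDD6 and 969, 918, 967 and 1014 CPM in VDS3 to VDS6, with a mean level 3.33 times as high in VDS-F1. This was a log2 fold change of -1.73 (SE 0.09, adjusted p = 8.22e-07). Glutamine synthetase marks the hepatocyte layer closest to the central vein, and each diet group was tight here, with SDs of 26.8 and 38.9 CPM.

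Cyp2e1 was at 2527, 2098 and 2243 CPM in the 3 VDD-F1 mice and at 4633, 6003, 6542 and 4846 CPM in the 4 VDS-F1 mice. The log2 fold change was -1.27 (SE 0.13, adjusted p = 0.000119), with a mean level 2.41 times as high in VDS-F1. Slc1a2 was at 118, 115 and 108 against 192, 202, 214 and 190 CPM, a log2 fold change of -0.81 (SE 0.08, adjusted p = 0.000109). Oat was at 439, 365 and 398 against 519, 839, 620 and 700 CPM, a log2 fold change of -0.74 (SE 0.14, adjusted p = 0.00679). These 3 genes of glutamate handling and oxidation, with Glul, were called in all 7 fits that left out 1 of the mice.

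Tbx3 had 41.3, 32.7 and 21.4 CPM in the 3 VDD-F1 mice and 54.2, 93.3, 80.8 and 43.1 CPM in the 4 VDS-F1 mice. Its log2 fold change was -1.10 (SE 0.27, adjusted p = 0.0224), and the highest VDD-F1 mouse, VDD4, was close to the lowest VDS-F1 mouse, VDS6. Rnf43 had 17.4, 9.10 and 10.3 against 21.3, 25.2, 30.6 and 17.7 CPM, a log2 fold change of -0.96 (SE 0.23, adjusted p = 0.0224), and VDD4 and VDS6 were again close. Neither was called without VDD5, VDD6, VDS4 or VDS5, where the adjusted p-values were 0.0511 to 0.0888 for Tbx3 and 0.0515 to 0.104 for Rnf43, and a robust edgeR fit did not call Tbx3 (0.12).

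The other 4 members overlapped between the diets in these mice. Axin2 was at 11.3, 8.89 and 5.97 against 10.7, 12.4, 13.7 and 7.87 CPM, a log2 fold change of -0.37 with a 95% interval of -0.88 to 0.13. Lgr5 had a value of -0.16 (-0.78 to 0.47) and Znrf3 of -0.11 (-0.40 to 0.19). Rhbg had a log2 fold change of -0.70 with the wide interval of -1.67 to 0.26, which holds the fold changes of the 6 genes that fell except Glul. The interval of Znrf3 holds none of them.

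In the other set, the 5 mice with no recorded liver weight, 0 members were called by edgeR, by DESeq2's Wald test or by voom, and 0 had an unadjusted p under 0.05. In the same fit 0% of all genes were called, and 3.79% had an unadjusted p under 0.05. The log2 fold change was negative for 7 of the 10 members, with a median of -0.25 beside 0.010 over all genes tested, and positive for Axin2 (0.21), Znrf3 (0.19) and Rhbg (0.09). Glul was at 1309, 392 and 1568 CPM in VDD1 to VDD3 and at 1477 and 1321 CPM in VDS1 and VDS2, so that VDD1, by little, and VDD2 lay under both VDS-F1 mice and VDD3 above them. Its log2 fold change of -0.36 had a 95% interval of -1.59 to 0.86. Cyp2e1 was at 4220, 2130 and 6037 against 5541 and 4781 CPM (-0.32, -1.29 to 0.65), and Oat at 865, 156 and 604 against 511 and 700 CPM (-0.16, -1.61 to 1.29). Lgr5 had the lowest value of the members here, -0.46 (95% interval -1.19 to 0.28).

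The diet effects of the 2 sets were compared by the interaction of diet and set, which called 0 members by edgeR and by DESeq2's Wald test and 11 of 12453 genes by edgeR, 0.0883%. Glul (log2 difference of fold changes -1.37, SE 0.50, adjusted p = 0.413) and Cyp2e1 (-0.94, SE 0.41, adjusted p = 0.522) had an unadjusted p under 0.05, as had 9.01% of all genes. Without VDD2, 3 members were called, Glul, Cyp2e1 and Slc1a2. Voom called Glul. The share of all genes called is not given here for the fit without VDD2 or for voom. The 0.0883% belongs to edgeR's fit with no mouse left out, so these calls cannot be set against it. A call in one set and not in the other does not show that the diet effects differ.

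For 5 members VDD2 stood with VDD4 to VDD6 and not with VDD1 and VDD3 of its own set. Of the 10 members, 5 lay under every VDS-F1 mouse in VDD2 (Glul, Tbx3, Oat, Slc1a2 and Cyp2e1), 7 in VDD4, 6 in VDD5 and 8 in VDD6, but 1 each in VDD1 (Cyp2e1) and VDD3 (Lgr5). Over all genes tested, the share under every VDS-F1 mouse was 26% in VDD2, 14.4% in VDD1, 16.7% in VDD3 and 17% to 19.2% in VDD4 to VDD6. Rnf43 and Znrf3 were not among the low genes of VDD2, at 21.1 and 23.3 CPM. In both, VDD2 lay above VDD4 to VDD6 and near VDD3 (20.0 and 23.2 CPM).

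The sets themselves were compared with the diet in the model. Here 306 of 12453 genes were called, 2.46%, and 1 member, Glul, was lower in the mice with a recorded liver weight. Its log2 fold change was -1.29 (SE 0.32, adjusted p = 0.0499), with means of 677 ± 363 (SD, n = 7) and 1213 ± 472 CPM (SD, n = 5). Within VDS-F1 mice alone, VDS1 and VDS2 (1477 and 1321 CPM) were above VDS3 to VDS6 (918 to 1014 CPM). The call lies at the threshold: a robust edgeR fit gave an adjusted p of 0.111, DESeq2's size factors 0.0505, and of the 12 fits without 1 mouse only that without VDD2 kept it. All 10 members had a negative value here, where 52.2% of all genes did, and Rnf43 and Znrf3 had, like Glul, an unadjusted p under 0.05 in this direction, as had 7.99% of all genes.

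The pericentral cytochrome P450s, oxidases of drugs, steroids and bile acid precursors, were described from a list of 10 genes that holds no member. Over all mice 1 was called, Cyp1a2, as lower (log2 fold change -1.35, SE 0.20, adjusted p = 0.0269). This call was lost when any 1 of VDD4 to VDD6 or VDS3 to VDS6 was left out, and the number of P450 genes called ran from 0 to 4 over the 12 fits without 1 mouse, with 4 without VDD3 and 3 without VDD1. Cyp2c37 (-2.08, adjusted p = 0.0812), Cyp2c54 (-1.67, 0.10) and Cyp2c50 (-1.48, 0.0883), of a family whose near-identical members can share reads, were not called by edgeR. DESeq2's Wald test called these 3 with Cyp1a2, 4 genes in all, and voom called 5, also Cyp27a1. The median of the list was -0.78, beside -0.46 for the 10 members.

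In the mice with a recorded liver weight 8 of these 10 P450 genes were called lower (5.12% of all genes), with a median of -0.95. Of the 10 members 6 were, with -0.77. Cyp2c37 fell most, from 188, 178, 222 and 180 CPM in VDS3 to VDS6 to 27.9, 21.7 and 23.0 CPM in VDD4 to VDD6 (log2 fold change -2.99, SE 0.12, adjusted p = 1.79e-07). Cyp1a2 had a log2 fold change of -1.48, beside -1.73 for Glul, and the difference between them was not tested. Cyp3a11 and Cyp7a1 were not called, at 0.33 and 0.01.

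In VDD1 and VDD3, the VDD-F1 mice where Glul was not low, the P450 genes were not alike. In VDD1 Cyp1a2 was at 307 CPM, under all VDS-F1 mice (462 to 861), while Glul, Oat and Slc1a2 were not low in that mouse. VDD3 had 361 CPM of Cyp1a2 and the highest Glul of the 12 mice. Cyp27a1, by contrast, was at -0.07 and -0.06 on the log2 scale from the VDS-F1 mean in VDD1 and VDD3, and Cyp8b1 at -0.10 and 0.43. Cyp2c29, Cyp2c37, Cyp2c50, Cyp2c54, Cyp2a5 and Cyp3a11 were under the VDS-F1 mean in both mice, by values of -2.16 to -0.44, and also in VDS1 and VDS2 of the same set, by -1.80 to -0.20. Cyp7a1 was at -1.18 in VDD1 and 0.35 in VDD3. With the diet in the model, 2 P450 genes, Cyp3a11 (log2 fold change 2.30, adjusted p = 0.000443) and Cyp2a5 (1.26, adjusted p = 0.00169), were higher in the mice with a recorded liver weight, the set in which Glul was lower. In the same comparison 5 of 14 other pericentral genes were called lower, as Glul was, Cldn2 (-0.79), Gulo (-0.74), Slc13a3 (-0.69), Ahr (-0.59) and Lect2 (-0.58), with a list median of -0.40. Of 15 periportal genes 4 were called higher, Etnppl (1.30), Hal (0.83), Gls2 (0.75) and Cyp2f2 (0.75), and of the Wnt pathway lists Tnfrsf19 alone was called, as lower.

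**Figure D3:**
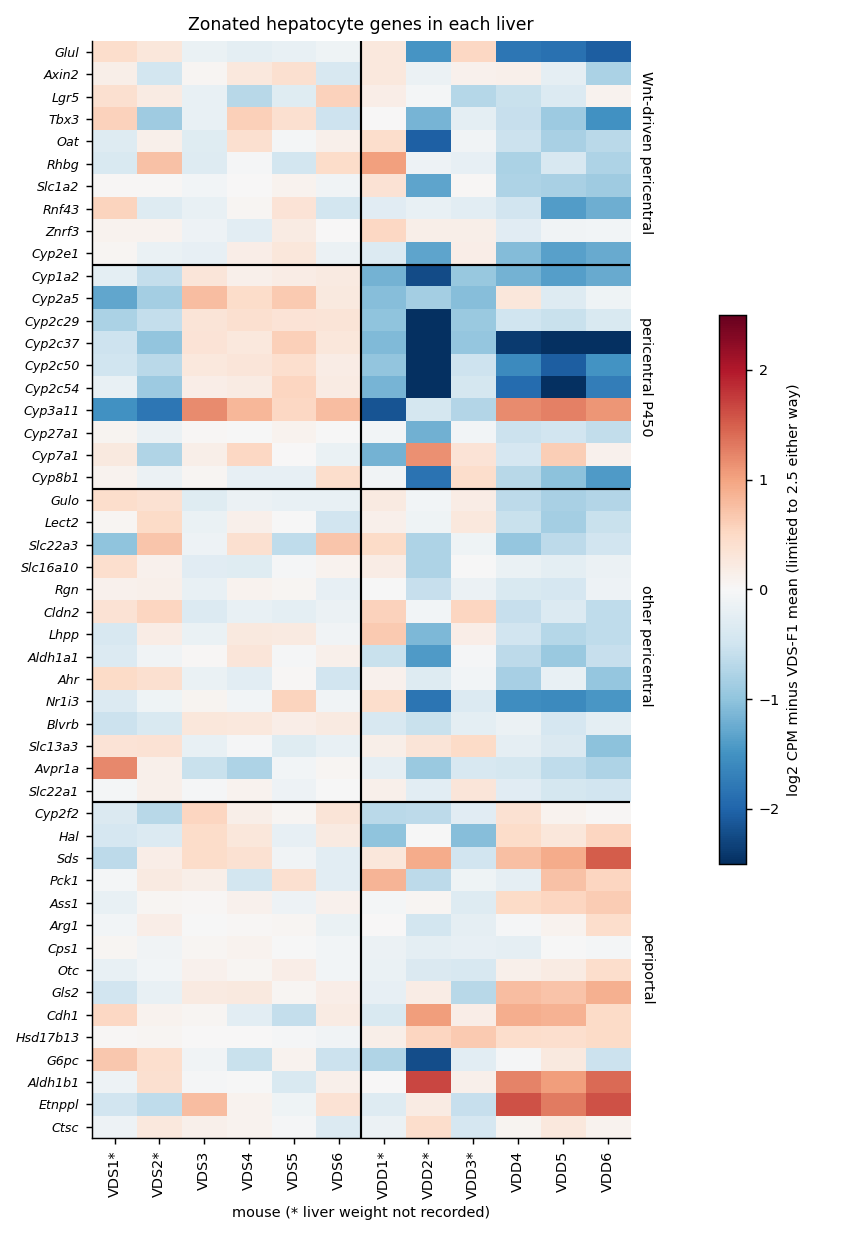
Each row is a zonated hepatocyte gene and each column a mouse (stars mark mice without a recorded liver weight); colour is log2 CPM minus the VDS-F1 mean, blue lower and red higher, limited to 2.5 either way. Glul, Oat, Slc1a2 and Cyp2e1 are blue in VDD2, VDD4, VDD5 and VDD6 and close to or above the VDS-F1 mean in VDD3, where Oat had -0.08, whereas Cyp1a2 is blue in all 6 VDD-F1 mice.

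Of 14 other pericentral genes, 0 were called over all mice by edgeR. An unadjusted p under 0.05 was found for 5, all lower, a direction in which 6.29% of all genes had one. DESeq2's Wald test called 1, Aldh1a1, while voom called Aldh1a1 and Nr1i3. All 14 had a negative log2 fold change, with a median of -0.27. Aldh1a1, a retinaldehyde dehydrogenase, had -0.65 (SE 0.19, adjusted p = 0.12), Avpr1a, a vasopressin receptor, -0.71, Blvrb, biliverdin reductase B, -0.36, and Rgn, regucalcin, -0.27. Within the set with a recorded liver weight, 7 of the 14 were called, all lower (5.12% of all genes), with a median of -0.45. Aldh1a1 fell there by 0.83 and Nr1i3, the nuclear receptor CAR, by 1.68 on the log2 scale.

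Of 15 periportal genes, 0 were called over all mice by edgeR and 5 had an unadjusted p under 0.05, all higher, a direction in which 9.55% of all genes had one. DESeq2's Wald test and voom each called 2, Aldh1b1 and Hsd17b13. Hsd17b13, a lipid droplet protein, was at 323 to 463 CPM in VDD-F1 and 275 to 305 CPM in VDS-F1 mice, without overlap (log2 fold change 0.45, SE 0.09, adjusted p = 0.0640), where 0.61% of all genes did not overlap in that direction. Aldh1b1, a mitochondrial aldehyde dehydrogenase, had 1.03, Sds, serine dehydratase, 0.73, and Cdh1, E-cadherin, 0.55. Within the set with a recorded liver weight 7 of the 15 were called, all higher (5.85% of all genes), with a median of 0.40, opposite in sign to the members. They were Aldh1b1 (1.30), Etnppl, Sds, Cdh1, Gls2, Ass1 and Hsd17b13, while Cps1 and Otc of the urea cycle were not called.

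The Wnt ligands and their helpers were low in whole liver. Of 13 genes listed 8 passed the filter, and Rspo2 and Rspo4 had no count in any mouse. None was called over all mice by edgeR. Wls, which escorts Wnt ligands to the membrane, was called by DESeq2's Wald test and voom (edgeR log2 fold change 0.84, SE 0.23, adjusted p = 0.103) and was the only one with an unadjusted p under 0.05. Wnt2 was at 1.03 to 3.24 CPM in VDD-F1 and 1.33 to 3.28 CPM in VDS-F1 mice (-0.63, SE 0.30, adjusted p = 0.319). Wnt9b (0.33, SE 0.36) and Rspo3 (0.03, SE 0.21) had differences smaller than their errors, and Wnt5a had 0.62 (SE 0.53).

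In the mice with a recorded liver weight, Wnt2 and Wls were called in opposite directions. Wnt2 was at 1.03, 1.79 and 1.54 CPM in VDD-F1 and 2.41, 3.28, 3.12 and 3.15 CPM in VDS-F1 mice, a log2 fold change of -1.02 (SE 0.28, adjusted p = 0.0388). Wls was at 7.14, 6.36 and 4.48 against 3.09, 3.12, 2.92 and 2.0 CPM, a log2 fold change of 1.09 (SE 0.24, adjusted p = 0.0122). Wnt9b (0.19) and Rspo3 (-0.06) were not called.

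Of the Wnt receptors 10 of 14 listed passed the filter and 0 were called over all mice by edgeR, DESeq2's Wald test or voom, and 0 had an unadjusted p under 0.05. Lgr4, the R-spondin receptor that resembles Lgr5, was at 73.2 to 94.6 CPM in VDD-F1 and 88.3 to 111 CPM in VDS-F1 mice (-0.15, SE 0.08). Fzd8 (-0.34), Fzd1 (0.29) and Fzd6 (0.19) were the other receptors with the smallest p-values. Fzd8 (-0.85, adjusted p = 0.0117) and Fzd4 (-0.47, adjusted p = 0.0221) were lower in the mice with a recorded liver weight. Fzd4 had 0.54 in the other set, and its interaction had an adjusted p of 0.0573.

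Of 21 genes of the destruction complex and the beta-catenin transcription complex, 18 were tested and 0 were called over all mice by the 3 tools, with 1 at an unadjusted p under 0.05, Tcf7l2 (-0.31, SE 0.13, adjusted p = 0.247). Dvl3 had -0.23, Dvl2 0.34 and Bcl9l -0.24. Ctnnb1, the gene of beta-catenin itself, was at 189 to 209 CPM in VDD-F1 and 185 to 216 CPM in VDS-F1 mice (0.03, SE 0.07). Bcl9l, a coactivator of beta-catenin, was called in the mice with a recorded liver weight (-0.49, SE 0.10, adjusted p = 0.00981).

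Of 17 inhibitors, 8 were tested and 0 were called over all mice by edgeR, with 4 at an unadjusted p under 0.05. Dkk3 had 1.73 (SE 0.46, adjusted p = 0.103) and was called by DESeq2's Wald test and voom. Ctnnbip1, which keeps beta-catenin from TCF factors, had 0.38. Nkd1 and Notum, feedback inhibitors that Wnt signalling itself induces, had negative values, -0.59 (SE 0.21, adjusted p = 0.199) and -0.27 (SE 0.12, adjusted p = 0.279). Dkk3 was also called in the mice with a recorded liver weight (1.51, adjusted p = 0.0260).

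Wnt targets known from many tissues went in both directions. Of 12 listed, 9 were tested, 0 were called over all mice by edgeR, and the median log2 fold change was 0.37. Ccnd1, cyclin D1, was at 24.7 to 217 CPM in VDD-F1 and 9.59 to 20.5 CPM in VDS-F1 mice, without overlap, the highest in VDD2 (2.09, SE 0.48, adjusted p = 0.0855), and DESeq2's Wald test and voom called it. Sox9, also a marker of bile duct cells, had 0.52. Ccnd1 was higher (1.59, adjusted p = 0.000281) and Sp5 lower (-1.17, adjusted p = 0.0496) in the mice with a recorded liver weight.

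**Figure D4:**
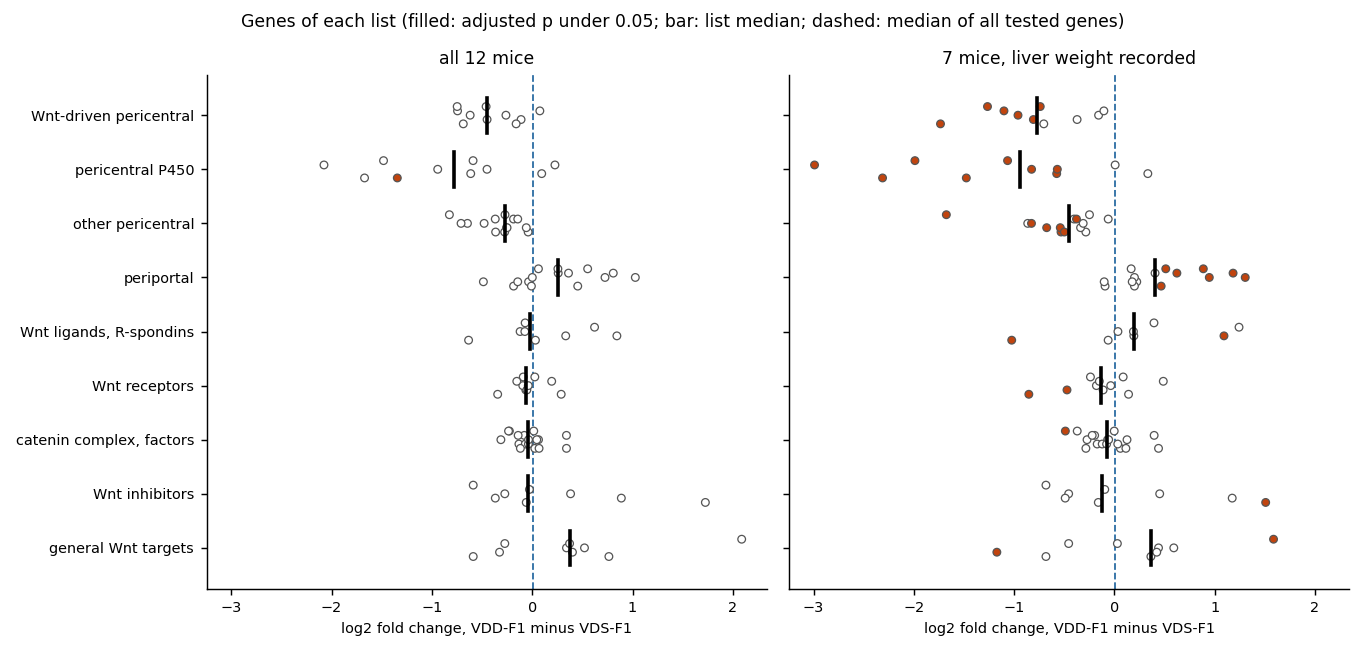
Log2 fold change of every tested gene of each list, VDD-F1 minus VDS-F1, over all 12 mice (left) and the 7 mice with a recorded liver weight (right); filled points have an adjusted p under 0.05, the black bar is the list's median and the dashed line the median of all tested genes. The 3 pericentral lists have medians under the dashed line in both panels and the periportal list above it, while the lists of receptors and of the catenin complex lie close to it.

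Markers of other liver cells differed between the same mice. The summed level of 7 stellate cell markers was 481 to 569 CPM in VDD4 to VDD6 and 289 to 356 CPM in VDS3 to VDS6, and 882 CPM in VDD2, against 308 and 465 in VDD1 and VDD3. Of these markers Col1a1 (2.67), Col3a1 (2.16) and Dcn (0.58) were called higher in the mice with a recorded liver weight, while Reln (-0.11) and Colec11 (-0.07) had lower values that were not called. The sum of 6 cholangiocyte markers was 58.2 to 72.4 CPM in VDD4 to VDD6 and 27.8 to 44.2 CPM in VDS3 to VDS6, and 116 CPM in VDD2, against 23.9 and 40.7 in VDD1 and VDD3, and Epcam and Spp1 were called higher. No marker of these 2 lists was at 0 in every mouse.

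The sum of 7 markers of the central vein endothelium, which include Wnt2, Wnt9b and Rspo3, was 15.5 to 22.7 CPM in VDD4 to VDD6 and 22.6 to 29.8 CPM in VDS3 to VDS6, and Wnt2 and Kit of them were called lower. VDD2, at 24.5 CPM, lay within the range of VDS3 to VDS6. The sum of 9 sinusoidal endothelial markers was 355 to 387 against 371 to 444 CPM, with Stab2 called lower, whereas Pecam1 had 0.29 (adjusted p = 0.130). The sum of 6 Kupffer cell markers was 79.8 to 129 against 135 to 180 CPM, with Clec4f, Cd5l and Timd4 called lower and Marco at 0.69 (adjusted p = 0.0707). In VDD2 the Kupffer sum was not low, at 231 CPM, and the sinusoidal sum was 396 CPM. The sum of 6 lymphocyte markers was 10.2 to 13.3 against 8.66 to 9.36 CPM, with none called, and 29.4 CPM in VDD2, the highest of the 12 mice. The sum of 8 hepatocyte markers was 104780 to 108514 against 83547 to 91238 CPM, with Alb and Tat called higher and Hnf4a and Cebpa lower, and most of this sum is Alb. In VDD2 it was 94289 CPM, the lowest of the VDD-F1 mice and under VDS1 and VDS2 (101725 and 99492 CPM).

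Over all 12 mice, 0 of the 44 markers tested were called by edgeR, 13 had an unadjusted p under 0.05 (6 lower and 7 higher, where 6.29% and 9.55% of all genes had one), DESeq2's Wald test called 2, Col1a1 and Col3a1, and voom called 7, these and Alb, Clec4f, Dcn, Kit and Stab2. Among the genes with the smallest p-values of each list, Col1a1 had a log2 fold change of 2.27 (adjusted p = 0.0883), Col3a1 1.78 (adjusted p = 0.0855) and Des 0.39, and Epcam had 1.06, Spp1 0.83 and Krt19 0.60. Kit had -0.42, Cdh13 -0.46 and Thbd 0.33. Clec4g (-0.28) and Stab2 (-0.25) had values opposite in sign to Lyve1 (0.39) and Pecam1 (0.24), as had Timd4 (-0.81), Clec4f (-0.50) and Vsig4 (-0.31) to Marco (0.59). Cd79a had 0.78, Cd3e 0.61 and Ptprc 0.44, while Hnf4a had -0.29, Cebpa -0.22, Alb 0.24 and Apoa1 0.24. The part of other cell types in the members' differences was not tested.

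After the mean of each diet in each set was removed from log2 CPM, the remaining variation of Glul over the 12 mice was most like that of Slc10a1, the bile acid uptake transporter (Pearson's r = 0.989, Spearman's rho = 0.909). Hsd3b5 (r = 0.985, rho = 0.657), Cyp2c37 (0.982, 0.776), Cyp27a1 (0.982, 0.867) and Mup17 (0.978, 0.727) came next among the genes tested that are no member. Without VDD2 and VDD3, the 2 mice farthest from the median of Glul, these 5 values were 0.882 to 0.925. The means removed still held these 2 mice, so VDD1, of the same diet and set, kept an offset that came from them. Values without VDD2 and VDD3 therefore cannot show whether a likeness rested on these mice. Among the members r with Glul was 0.941 for Slc1a2, 0.884 for Cyp2e1 and 0.872 for Oat (rho 0.699, 0.552 and 0.455). Without these mice, with the same means removed, it was 0.891, 0.295 and 0.659. The other members had lower r, 0.526 for Tbx3, 0.324 for Axin2, 0.221 for Znrf3, 0.198 for Rhbg, 0.0062 for Rnf43 and -0.194 for Lgr5, with rho of 0.545, 0.497, -0.028, -0.077, 0.238 and -0.084. Without these mice, again with the same means removed, r was 0.452, 0.391, 0.438, 0.442, 0.166 and 0.306 in the same order. These values describe libraries that share 1 normalization.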

How the data were processed

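Total RNA from the left lateral lobe of 12 livers was made into libraries with KAPA RNA HyperPrep with RiboErase. After trimming, the authors aligned the reads to mm10 (GRCm38, GENCODE M15) with STAR and deposited its raw counts per gene, ignoring strand and for both strands. Of these, the reverse-strand counts (92.7% to 95.8% of stranded counts) entered the fits. Rows that name no gene were left out of library sizes: 23.5% to 37.9% of fragments were unmapped and 2.52% to 11.1% lay outside genes. GENCODE M21 named 52403 of 52636 genes. Counting each fragment at 1 place leaves out reads shared by near-identical genes.

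Genes whose counts averaged 12 or more were tested with edgeR 4.0.16 in R 4.3.3 (TMM, quasi-likelihood test in the legacy form), Benjamini-Hochberg adjusted over all 12453 genes, and called at an adjusted p under 0.05. The study's methods name DESeq2, run here as an alternative (1.42.0), with voom in limma 3.58.1 and others in the closing section. The comparisons were diet, diet within each set, set with the diet in the model, and the interaction. Intervals are 95% intervals of edgeR's coefficient, and the SE is its size divided by the square root of F. No mice proved to be the same library. The p-values set each difference against the spread between these mice, taken as independent. The diet was given to the dams and nothing says that mice came from separate litters, so the p-values may be too small. Methods were tested on simulated data. All 10 members are named, and of each list the called genes and up to 4 with the smallest p in the diet fit, with Wnt2, Wnt9b and Rspo3. Other names (Cyp3a11, Cyp2a5, Cyp7a1, Nr1i3, Etnppl, Gls2, Ass1, Cps1, Otc, Fzd4, Ctnnb1, Sp5, Cd5l, Tat, Reln, Colec11, Cyp8b1, Cyp2c29, Cldn2, Gulo, Slc13a3, Ahr, Lect2, Hal, Cyp2f2, Tnfrsf19) were chosen after their values were seen. The members and lists were chosen with earlier results of these data known. Promoter sequences are from RefSeq (GRCm38.p6).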

Additional observations from a re-analysis of the deposited data

Results flagged for a closer look

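Rhbg in VDD1 stood apart from the other VDD-F1 mice, at 1.77 CPM where the next mouse had 0.731. This gap was 0.765 of the range of the 6 mice, above Dixon's critical value of 0.625. It was the only one among 20 groups of 6 mice (10 members in 2 diet groups), and chance alone sets apart about 1 in 20. The value rests on 28 counts, and VDD1 also had the highest Oat and Slc1a2 of the 12 mice, at 865 and 257 CPM.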

How the results depend on the processing

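Of the members' fold changes under alternatives, 514 kept their direction and side of the threshold, 23 kept the direction and lost the call (Glul between the sets in 14, Tbx3 and Rnf43 within the mice with a recorded liver weight in 9), 4 gained it (Cyp2e1 and Rnf43 between the diets) and 9 changed sign. Between the diets they were Axin2 (0.00087 without VDD6), Rhbg (0.047 without VDS2) and Znrf3 (-0.029 without VDD1), whose values with each mouse left out ran from -0.19 to 0.00087, -0.59 to 0.047 and -0.029 to 0.14. Between the sets they were Axin2 (0.013 with voom, 0.0037 without VDD1 and 0.063 without VDD6, from -0.23) and Oat (0.11 without VDD1, from -0.36), and within the mice with a recorded liver weight Lgr5 (0.069 with voom, 0.14 without VDS6, from -0.37). Members called between the diets numbered 1 with DESeq2's Wald test, 2 with voom and 0 to 1 with each mouse left out. Between the sets the count was 0 with the robust fit, 0 with DESeq2's size factors, 0 with no diet term (adjusted p of Glul 0.419) and 0 to 1 with each mouse left out. Within the mice with a recorded liver weight it was 4 to 6 with each mouse left out, and within the others 0 to 0. The interaction called 1 member with voom, 2 with no filter on low counts and 0 to 3 with each mouse left out. The share of all genes that these alternative fits of the interaction called is not given here. Leave-one-out fits within sets and of the interaction were chosen after seeing the data. Lists between the diets under DESeq2, voom and each mouse left out gave 4, 5 and 0 to 4 pericentral P450 genes (1 in the main fit, 3 with no filter), 1, 2 and 0 to 1 other pericentral genes, 2, 2 and 0 to 2 periportal genes, 1, 1 and 0 to 1 ligands, inhibitors and general targets each (1 target with no filter), and 0 receptors and core genes in each. Without any 1 of VDD4, VDD5, VDD6, VDS3, VDS4, VDS5 or VDS6 no P450 gene was called. DESeq2's size factors moved the median of all genes by at most 0.017 on the log2 scale. The replicate numbers do not pair the mice: deviations of same-numbered mice correlated at -0.076 to 0.103 over 6 pairs, and 0 were most alike with their own number. A fit with the replicate block called 0 members and 1 P450 gene between the diets. Depth limits Rhbg and the Wnt ligands, at few counts per library, and the overlap with Gm38392 may lower the counts of Rhbg.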
